A study of Mus musculus with 10 samples.

Results

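Collagen genes were read in interscapular brown adipose tissue (iBAT) of 5 Axl KO and 5 WT mice after high-fat diet (HFD). Membership was decided by name alone: a protein-coding gene counted as a collagen if its symbol was Col, a number, the letter a and a second number, and 44 of the 41249 gene identifiers in the tables met this. No measured value entered the choice. The mice were male, went onto HFD at 6 to 8 weeks of age and stayed on it for 24 weeks according to the labels, and whole depots were taken for bulk RNA sequencing. Axl encodes a receptor tyrosine kinase, and the KO mice lacked it constitutively throughout the body: they carried a knockout-first cassette in Axl, the allele tm1a(EUCOMM)HMGU, and the line was founded from 2 embryonic stem cell clones. Both groups ate HFD, so no chow-fed mouse enters the comparison. Differences between genotypes in a whole depot can come from adipocytes or from any other cell of the depot. In bulk tissue, fewer cells of a type and less RNA per cell cannot be told apart.

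Collagens are proteins of 3 chains wound into a triple helix. Fibrillar collagens (types I, III and V in soft tissue) are secreted as procollagens, trimmed at their ends and packed into the fibrils that carry tension, and fibroblasts and adipocyte progenitors are their main source in fat. Type IV collagen forms the sheet-like network of the basement membrane, which surrounds each adipocyte, endothelial cell and pericyte. Type VI collagen makes beaded filaments between fibrils and basement membranes and is abundant around adipocytes. FACIT collagens (fibril-associated, with interrupted helices) sit on the surface of fibrils, multiplexins (types XV and XVIII) are bound to basement membranes, and smaller classes form hexagonal networks, anchoring fibrils or span the cell membrane.

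Between 5431014 and 9580215 reads were counted per mouse (Axl KO, 5431014 to 8214841 reads; WT, 5952427 to 9580215 reads). Levels are given as CPM, the reads of a gene relative to the library total after TMM scaling by edgeR, always in the order of replicates 1 to 5. Axl itself was at 2.01, 1.96, 1.75, 0.438 and 1.7 CPM in the KO mice and at 52.4, 38.3, 41.4, 38.6 and 45.3 CPM in the WT mice, so the libraries matched their labels. Axl had a log2 fold change of -4.77 ± 0.20 (SE), with unadjusted p = 7.92e-12 and adjusted p = 1.09e-07 by edgeR. The same fit gave all log2 fold changes below, as Axl KO over WT with n = 5 and 5 and the SE. Of the 44 collagen genes, 28 had a mean above 1 CPM over the 10 mice and were tested among 13739 genes. All 28 also had a mean above 1 CPM in each genotype taken alone, and none of the other 16 did in either. KO replicate 5 had the smallest library of all, and KO replicates 1 and 2 had almost no reads of skeletal muscle markers.

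Collagen IV genes lie in pairs that face away from each other. Col4a1 starts on the minus strand and Col4a2 on the plus strand of chromosome 8, and their first exons share 22 bases in the annotation of GRCm38. Reads that lie wholly within these 22 bases carry no mark of their gene unless strand was recorded. A longer read from either transcript reaches past them, on opposite sides for the 2 genes. The strand setting of the counting is not given in the sources used here. Between Col4a4 and Col4a3 on chromosome 1 the 2 starts are 71 bases apart without overlap, and Col4a5 and Col4a6 on chromosome X start 1308 bases from each other. The sequences below (RefSeq, GRCm38.p6, plus strand, 5′ to 3′) are shown because each lies where a divergent pair begins. Capitals mark GGGCGG, the core of a GC box.
Col4a1 and Col4a2, shared first-exon bases at chr8:11312805-11312826: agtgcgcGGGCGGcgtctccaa
Col4a4 and Col4a3, bases between the starts at chr1:82586850-82586920: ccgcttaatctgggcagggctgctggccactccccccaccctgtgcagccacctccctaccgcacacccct
A second set shows 2 fibrillar genes that followed Col1a1 from mouse to mouse, as described further on. Each is the 250 bases before the annotated start, read on the plus strand, which is the sense strand of both genes. Capitals mark TATAAA in Col3a1 and GGGCGG or its complement CCGCCC in Col5a1.
Col3a1, before the start at chr1:45311288-45311537: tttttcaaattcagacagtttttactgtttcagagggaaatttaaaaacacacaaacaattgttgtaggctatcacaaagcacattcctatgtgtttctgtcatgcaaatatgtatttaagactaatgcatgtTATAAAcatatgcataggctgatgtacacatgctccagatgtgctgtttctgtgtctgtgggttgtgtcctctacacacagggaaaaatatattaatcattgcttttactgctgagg
Col5a1, before the start at chr2:27886175-27886424: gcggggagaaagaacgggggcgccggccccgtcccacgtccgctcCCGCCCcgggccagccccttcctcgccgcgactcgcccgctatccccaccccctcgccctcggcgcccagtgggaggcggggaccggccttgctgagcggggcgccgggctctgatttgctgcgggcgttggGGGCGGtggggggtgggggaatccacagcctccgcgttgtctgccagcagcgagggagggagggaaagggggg
The Col3a1 stretch held 35.2% G and C and the Col5a1 stretch 76.4%. A search of both strands of the 250 upstream bases in RefSeq's promoter windows found TATAAA in 5 of 38 collagen windows (13.2%) and in 12.4% of all 32851 windows, CCAAT in 13 (34.2%) against 33.8% of all windows, and GGGCGG in 22 (57.9%) against 32.7%. Median G and C content was 59.0% in the collagen windows and 52.4% in all windows. These 38 windows belong to 35 of the 44 genes, and a match is a description of letters and not of a bound factor.

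Scaled by transcript length, basement membrane and fibrillar chains led the collagens of this depot. On a per-length scale (TPM, averaged over the 10 mice), Col4a1 was at 153 TPM, Col3a1 at 104, Col4a2 at 91.8 and Col1a2 at 53.5 TPM. TPM is a share of the length-scaled reads of all genes with a coding transcript, with the longest such transcript as length. Col4a1 was above Col3a1 in 10 of 10 mice, while Col3a1 was above Col4a2 in only 6 of 10, so these 2 did not separate. Col4a2 was above Col1a2, and Col1a2 above the next gene, in 10 of 10 mice. A group of chains followed with close levels: Col6a1 at 30.6, Col27a1 at 30, Col12a1 at 29, Col1a1 at 24.8 and Col6a3 at 23.4 TPM, and each of these was above its next neighbour in 5 to 8 of 10 mice, apart from Col6a3, which was above Col6a2 (19.9 TPM) in 10 of 10. Col5a2 came next at 12.5 TPM. Col15a1, Col5a3, Col5a1, Col18a1, Col14a1 and Col8a1 followed between 6.01 and 9.96 TPM, Col4a5 was at 3.69 and Col23a1 at 2.27 TPM, and the 9 remaining tested genes were between 0.416 and 1.73 TPM.

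Several collagens known from cartilage or skin had few or no reads, although Col27a1 and Col11a2 (146 reads), also known from cartilage, passed the filter. No read of Col2a1, the main fibrillar chain of cartilage, of Col9a2 or of Col6a4 was counted in any mouse, which at 3 reads over the 72927886 reads of all mice allows up to 0.0411 CPM (counting error only). Col11a1 had 7 reads in all, Col9a1 1, Col9a3 9, and the epidermal anchor Col17a1 11. Also below 1 CPM on average were Col4a6 (11 reads), Col6a5 (4), Col8a2 (12), Col19a1 (42), Col22a1 (9), Col24a1 (21), Col25a1 (4) and Col26a1 (4). Col10a1, the network-forming chain of hypertrophic cartilage, was the 1 untested gene that passed 1 CPM in any mouse: 0.155, 0.301, 0.117, 1.46 and 2.45 CPM in Axl KO and 0, 0.849, 0.348, 0.345 and 0 CPM in WT. Its 40 reads came mostly from KO replicates 4 and 5, and 18 bases of it overlap Nt5dc1, a gene on the opposite strand with 2078 reads. Among 7 markers of cartilage and bone, Matn1, Ibsp and Sp7 had no reads, Acan 2, Bglap 1, Comp 19 and Sox9, the 1 tested, 177. Of 5 skin epithelium markers, Krt5, Krt14 and Krt1 had none, Trp63 had 27 and Krt10, the 1 tested, 113.

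**Figure D1:**
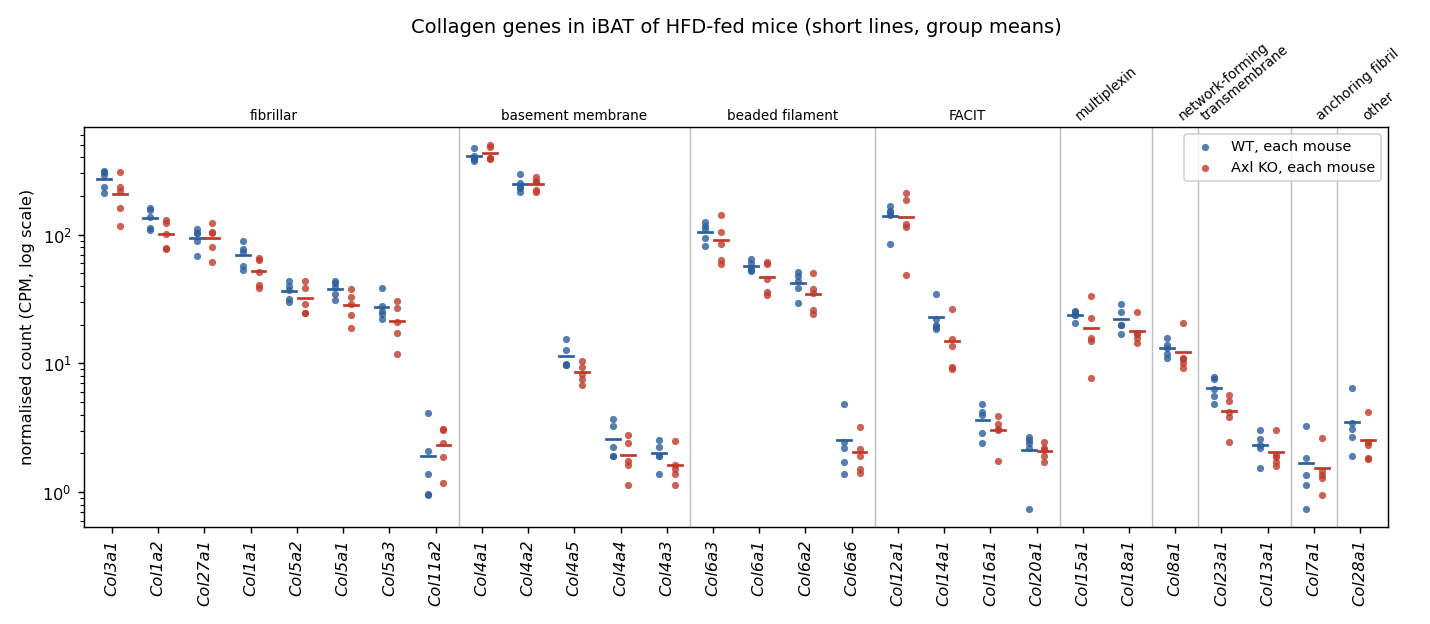
Normalised count (CPM, logarithmic axis) of the 28 tested collagen genes in each WT (blue) and Axl KO (red) mouse, grouped by class and sorted within a class, with short lines at the group means (n = 5 and 5). Points of the 2 genotypes overlap for each of the 28 genes, with the means of Col4a1, Col4a2, Col27a1 and Col12a1 nearly level.

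Of the 28 tested collagen genes, 24 had a lower fitted level in Axl KO than in WT and 4 a higher one, and no single gene passed correction. edgeR gave an adjusted p below 0.05 to 0 of the 28, against 1 of all 13739 tested genes (0.00728%), which was Axl itself, and DESeq2 also to 0, against 9 of 13737 (0.0655%). At an unadjusted p below 0.05, 6 collagen genes (21.4% of 28) were lower in Axl KO and 0 were higher, where 3.86% of all tested genes were lower and 4.52% higher at that p (8.38% in either direction). DESeq2 gave 6 genes as well, the same 6, where 6.93% of all genes it tested had such a p. The median log2 fold change of the 28 genes was -0.28, beside -0.000783 over all tested genes, and 85.7% of them were below 0 against 50.3% of all genes. In none of the 28 did the 5 KO mice separate from the 5 WT mice, which 1.36% of all tested genes did (0.633% lower and 0.728% higher in Axl KO). These counts describe the list and were not tested as a set, and collagen genes that vary together across mice are not independent of each other.

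The genes just named were spread over 4 classes. They were Col1a1, Col1a2 and Col5a1 (fibrillar), Col4a5 (basement membrane), Col14a1 (FACIT) and Col23a1 (transmembrane), with adjusted p between 0.572 and 0.588. Their number depended on single mice: it was 2 without KO replicate 4, WT replicate 1 or WT replicate 3, 3 without KO replicate 2, KO replicate 5 or WT replicate 5, and 10 without KO replicate 3. Col23a1 was the 1 gene with an unadjusted p below 0.05 in 10 of 10 fits that left out a mouse, whereas Col14a1 kept it in 3, Col1a1 in 4, Col1a2 in 6, and Col4a5 and Col5a1 in 7. The median stayed between -0.37 (without KO replicate 1) and -0.19 (without KO replicate 5). Between 13 (KO replicate 3) and 25 (KO replicate 5) of the 28 genes were below the WT mean in a KO mouse, and between 9 and 23 (WT replicate 2) in a WT mouse, so single WT mice reached the KO range.

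**Figure D2:**
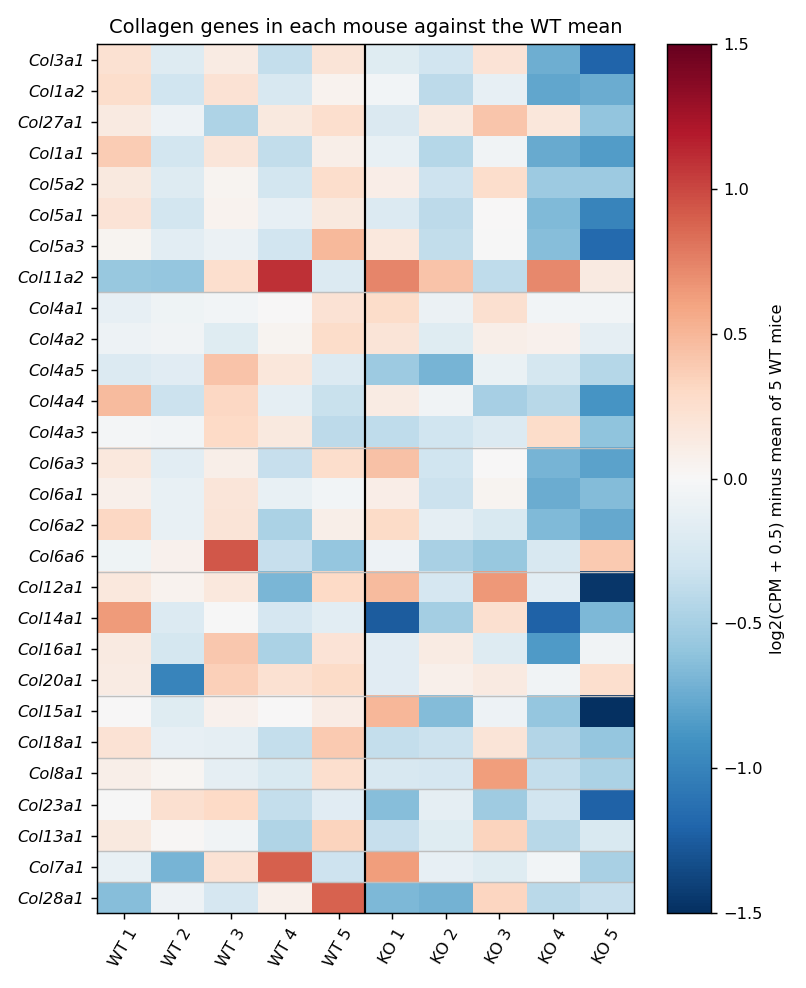
Heatmap of log2(CPM + 0.5) of the 28 tested collagen genes in each mouse minus the mean of the 5 WT mice, with colours limited to 1.5 in either direction. KO replicates 4 and 5 are blue in 24 and 25 of the 28 rows, KO replicate 3 in 13, and WT replicate 2 in 23.

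**Figure D3:**
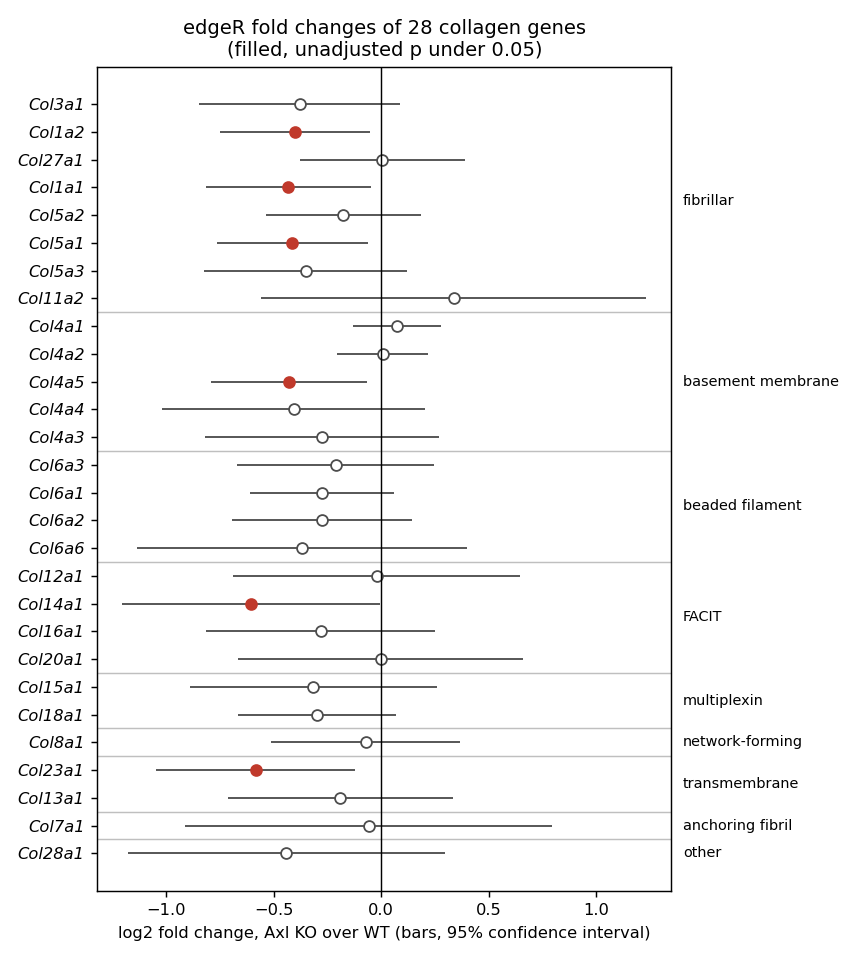
edgeR log2 fold change of Axl KO over WT for each tested collagen gene with its 95% confidence interval, grouped by class (n = 5 and 5). The 6 filled points have an unadjusted p under 0.05 and all lie left of 0, and Col4a1 and Col4a2 have the narrowest intervals, which span 0.

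Fibrillar collagen transcripts together averaged 0.802 of the WT level in the KO mice. Summed over the 11 genes, they took 615, 556, 731, 454 and 354 CPM in Axl KO and 779, 578, 699, 571 and 754 CPM in WT, with means of 542 ± 145 and 676 ± 97.6 CPM (SD, n = 5 each). KO replicates 2, 4 and 5 were below every WT mouse, and replicates 1 and 3 were inside the WT range. Without KO replicate 5 the log2 ratio of the sums was -0.20 and without KO replicate 3 it was -0.45, beside -0.32 with all mice.

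Type I collagen is built from 2 chains of Col1a1 and 1 of Col1a2. Col1a1 was at 63.5, 50.9, 66.1, 40.5 and 38.3 CPM in Axl KO and at 89.6, 56.9, 78.2, 53.1 and 73.3 CPM in WT, and 3 of the 5 KO mice were below the lowest WT mouse. Col1a1 had a log2 fold change of -0.43 ± 0.18 (SE), with unadjusted p = 0.0289 and adjusted p = 0.572 by edgeR. Col1a2 was at 130.2, 101, 122, 77.7 and 79.2 CPM in Axl KO and at 160.3, 108, 156, 113 and 138 CPM in WT, with the same 3 KO mice, replicates 2, 4 and 5, below the WT range. Col1a2 had a log2 fold change of -0.40 ± 0.16 (SE), with unadjusted p = 0.0254 and adjusted p = 0.572 by edgeR. The partner chain thus showed about the same ratio, and for both the 2 groups overlapped in KO replicates 1 and 3. Exact permutation tests of the single genes, 2-sided on log2(CPM + 0.5), gave p = 0.0873 for Col1a1 and p = 0.0794 for Col1a2, where 0.00794 is the smallest p that 5 against 5 mice can give.

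Type III collagen, a trimer of Col3a1 chains alone, co-assembles with type I in soft tissue. Col3a1 was at 236, 219.7, 308, 161 and 116 CPM in Axl KO and at 313, 235, 293, 209.8 and 306 CPM in WT. Col3a1 had a log2 fold change of -0.38 ± 0.21 (SE), with unadjusted p = 0.0992 and adjusted p = 0.641 by edgeR. KO replicates 4 and 5 were below every WT mouse and KO replicate 3 was near the top of the WT range, and the 95% interval ran from -0.84 to 0.08. A miRNA gene model, Gm47302, shares 141 bases with Col3a1 on the same strand and had 542 reads.

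Type V collagen sets the diameter of type I fibrils from within them, and its 3 chains were all lower on average. Col5a1 was at 32.8, 28.8, 37.9, 23.6 and 18.9 CPM in Axl KO and at 43.6, 31.2, 39.2, 34.6 and 42 CPM in WT, with 3 KO mice below the lowest WT mouse. Col5a1 had a log2 fold change of -0.41 ± 0.16 (SE), with unadjusted p = 0.0227 and adjusted p = 0.572 by edgeR and an exact permutation p of 0.0556. Col5a2, which lies 24614 bases from Col3a1 on the opposite strand of chromosome 1, was at 38.8, 29.1, 43.5, 24.6 and 24.7 CPM in Axl KO and at 40.1, 31.6, 37.3, 29.8 and 43.6 CPM in WT. Col5a2 had a log2 fold change of -0.18 ± 0.16 (SE), with unadjusted p = 0.303 and adjusted p = 0.783 by edgeR. KO replicate 3 was level with the highest WT mouse there. Col5a3 ranged from 11.9 to 30.5 CPM in Axl KO and from 22.2 to 38.3 CPM in WT (log2 fold change -0.35, unadjusted p = 0.129 by edgeR).

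Not every fibrillar chain had this pattern. Col27a1, a fibrillar collagen best known from growth plate cartilage, ranged from 61.7 to 124 CPM in Axl KO and from 67.8 to 112 CPM in WT, and its fitted difference was 0.0058 on the log2 scale with a 95% interval of -0.37 to 0.38. On the per-length scale it was at the level of Col6a1, while Acan, Matn1 and the cartilage collagen Col2a1 had 2, 0 and 0 reads. Col11a2 was low and scattered, from 0.955 to 4.13 CPM in WT and from 1.17 to 3.09 CPM in Axl KO. Col11a2 had a log2 fold change of 0.34 ± 0.41 (SE), with unadjusted p = 0.427 and adjusted p = 0.835 by edgeR. It ran from 0.15 to 0.76 as single mice were left out, with the upper end and the 1 unadjusted p below 0.05 of the 10 fits without WT replicate 4, the highest mouse.

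The 2 abundant basement membrane chains differed between genotypes by less than the spread between mice. Col4a1 and Col4a2 form the α1α1α2 trimer found in nearly every basement membrane. Col4a1 was at 497, 385, 485, 397 and 398 CPM in Axl KO and at 376, 391, 398, 412 and 477 CPM in WT. Col4a1 had a log2 fold change of 0.07 ± 0.09 (SE), with unadjusted p = 0.434 and adjusted p = 0.837 by edgeR. Col4a2 was at 279, 216, 261, 257 and 223 CPM in Axl KO and at 232, 235, 216, 252 and 296 CPM in WT. Col4a2 had a log2 fold change of 0.00611 ± 0.10 (SE), with unadjusted p = 0.95 and adjusted p = 0.994 by edgeR. The 95% intervals of the log2 fold changes, -0.13 to 0.27 for Col4a1 and -0.20 to 0.21 for Col4a2, were the narrowest of all 28 genes. For Col4a1 KO replicates 1 and 3 lay above every WT mouse, and for Col4a2 no KO mouse lay outside the WT range. The sign of the Col4a2 value turned when any of 6 of the 10 mice was left out (range -0.04 to 0.08).

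The rarer type IV chains had lower KO means. Col4a5, a chain of the kidney and epithelial networks that is encoded on the X chromosome, was at 7.58, 6.78, 10.5, 9.34 and 8.3 CPM in Axl KO and at 9.71, 9.97, 15.4, 12.8 and 9.71 CPM in WT. Col4a5 had a log2 fold change of -0.43 ± 0.17 (SE), with unadjusted p = 0.0232 and adjusted p = 0.572 by edgeR. The exact permutation p of Col4a5 was 0.0556. In 4 of the 5 KO mice, all but replicate 3, the level was below the lowest WT mouse. Col4a4 was at 2.78, 2.41, 1.64, 1.75 and 1.13 CPM in Axl KO and at 3.69, 1.91, 3.24, 2.24 and 1.89 CPM in WT. Col4a4 had a log2 fold change of -0.41 ± 0.28 (SE), with unadjusted p = 0.171 and adjusted p = 0.694 by edgeR. Of the KO mice, replicates 3, 4 and 5 were below the lowest WT mouse, and the fitted Col4a4 value was -0.75 without KO replicates 1 and 2. Col4a3, whose product joins Col4a4 and Col4a5 in 1 trimer, was at 1.39, 1.51, 1.64, 2.48 and 1.13 CPM in Axl KO and at 1.92, 1.91, 2.55, 2.24 and 1.39 CPM in WT. Col4a3 had a log2 fold change of -0.28 ± 0.25 (SE), with unadjusted p = 0.291 and adjusted p = 0.775 by edgeR. Both rested on 134 to 167 reads over the 10 mice, their groups overlapped, and 563 bases of Col4a3 overlap C430014B12Rik on the other strand (112 reads). Because Col4a1 and Col4a2 hold nearly all reads of the class, its sum was 692 ± 78.5 CPM in Axl KO and 673 ± 66.8 CPM in WT (SD, n = 5 each), a ratio of 1.03.

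The 2 major classes took different mean shares of the collagen reads, while single mice of the genotypes overlapped. Basement membrane genes took 43.3 ± 5.72% of all collagen reads in Axl KO and 37.6 ± 3.87% in WT, and fibrillar genes took 33.0 ± 3.19% and 37.5 ± 2.31% (SD, n = 5 each). These shares are of reads and are not scaled by length. The per-length ratio of Col1a1 to Col4a1 averaged 0.133 ± 0.0205 in Axl KO and 0.192 ± 0.0498 in WT, with an exact permutation p of 0.0238 that became 0.286 when adjusted over the 12 pairs examined.

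**Figure D4:**
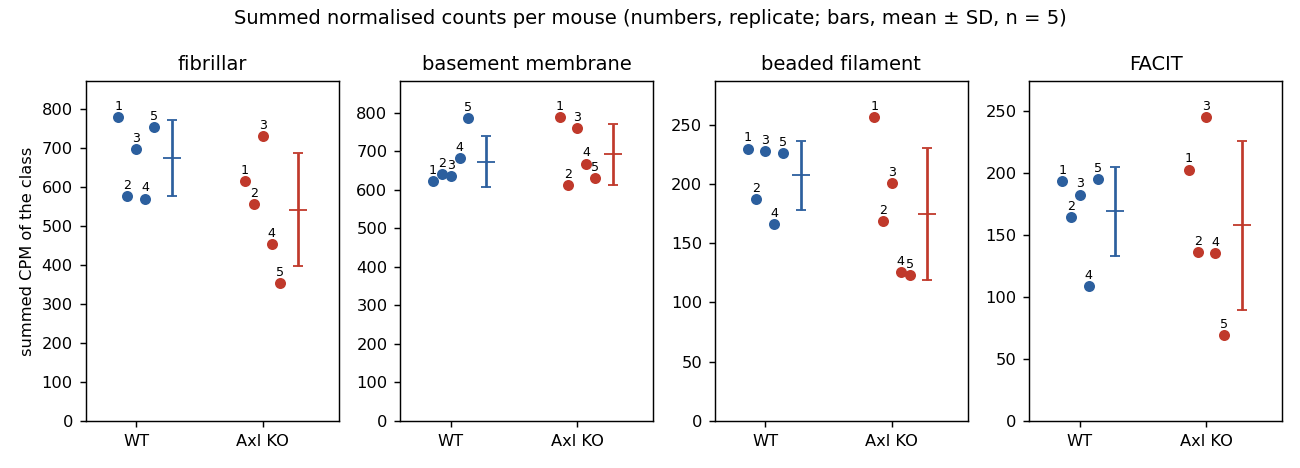
Summed CPM of 4 collagen classes in each WT and Axl KO mouse, numbered by replicate, with the mean ± SD beside the points (n = 5 each, axes from 0). KO replicates 2, 4 and 5 lie below every WT mouse in the fibrillar panel and replicates 4 and 5 in the beaded filament panel, and the basement membrane sums of the genotypes overlap throughout.

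Type VI collagen, the beaded filament collagen assembled from Col6a1, Col6a2 and Col6a3 or a relative of it, averaged 0.843 of the WT sum. The class took 256, 169, 201, 126 and 123 CPM in Axl KO and 229.9, 187, 228, 166 and 226 CPM in WT. KO replicate 1 was the highest of all 10 mice, and KO replicates 4 and 5 were the lowest. Col6a1 was at 61.4, 45.3, 58.8, 33.8 and 36 CPM in Axl KO and at 60.2, 52.7, 64.8, 52.9 and 55.5 CPM in WT. Replicates 2, 4 and 5 of the KO mice were below the WT range. Col6a1 had a log2 fold change of -0.28 ± 0.15 (SE), with unadjusted p = 0.0923 and adjusted p = 0.635 by edgeR. Col6a2, its neighbour on chromosome 10, was at 50.9, 37.6, 35.4, 26.1 and 24.1 CPM in Axl KO and at 51.4, 38.4, 47.4, 29.6 and 44 CPM in WT. Only KO replicates 4 and 5 were below the WT range there. Col6a2 had a log2 fold change of -0.28 ± 0.19 (SE), with unadjusted p = 0.173 and adjusted p = 0.698 by edgeR. Col6a3, the chain whose end is released as endotrophin, was at 142, 84.5, 105, 64 and 59.8 CPM in Axl KO and at 116, 93.6, 111, 82 and 125 CPM in WT. Col6a3 had a log2 fold change of -0.21 ± 0.21 (SE), with unadjusted p = 0.327 and adjusted p = 0.794 by edgeR. The fitted Col6a3 value was -0.43 without KO replicate 1 and -0.10 without KO replicate 5, and the log2 ratio of the class sums, -0.25 with all mice, was -0.42 and -0.14 without them. Without KO replicates 1 and 2, the values of Col6a2 and Col6a3 were -0.55 and -0.46. The spread between KO mice was wider than the distance between group means for each of these 3 chains. Of the relatives of Col6a3, Col6a6 was at 2.04 ± 0.722 CPM in Axl KO and 2.52 ± 1.37 CPM in WT, and Col6a4 and Col6a5 had 0 and 4 reads.

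Of the FACIT collagens, Col12a1 was the most abundant and Col14a1 came next, and the difference between their fold changes was not tested. Col14a1, which sits on fibrils of loose connective tissue, was at 9.12, 15.5, 26.5, 9.34 and 13.8 CPM in Axl KO and at 34.9, 19.2, 22.1, 18.6 and 19.9 CPM in WT. Col14a1 had a log2 fold change of -0.60 ± 0.27 (SE), with unadjusted p = 0.0473 and adjusted p = 0.588 by edgeR. The exact permutation p of Col14a1 was 0.0794. All KO mice but replicate 3 were below the WT range, and WT replicate 1 stood above the other 4 WT mice. Col12a1, which binds the same fibrils in dense tissue, was at 188, 114, 213, 122 and 48.8 CPM in Axl KO and at 151, 141, 152, 84.4 and 168 CPM in WT. Col12a1 had a log2 fold change of -0.02 ± 0.31 (SE), with unadjusted p = 0.946 and adjusted p = 0.994 by edgeR. Its KO mice ranged on both sides of the WT mice, and the fitted value ran from -0.24 to 0.19 as single mice were left out, with KO replicate 5, the lowest mouse, giving the upper end. Col16a1 was at 3.04 ± 0.8 CPM in Axl KO and 3.65 ± 0.999 CPM in WT, and Col20a1 at 2.08 ± 0.29 and 2.11 ± 0.782 CPM. A transcript model on the same strand, BX649560.1, overlaps 79 bases of Col20a1 and had 461 reads beside its own 150.

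The multiplexins, basement membrane proteoglycan collagens, averaged 0.801 of the WT sum. Col15a1, a product of endothelial, muscle and fat cells, was at 33.7, 14.9, 22.4, 15.8 and 7.73 CPM in Axl KO and at 23.9, 20.8, 24.9, 23.8 and 25.6 CPM in WT. Col15a1 had a log2 fold change of -0.32 ± 0.26 (SE), with unadjusted p = 0.252 and adjusted p = 0.751 by edgeR. The 5 WT mice lay within a narrow band, and KO mice lay on both sides of it, replicate 1 above and replicates 2, 4 and 5 below. The fitted Col15a1 value was -0.61 without KO replicate 1 and -0.13 without KO replicate 5, the ends of its range as single mice were left out, and -0.59 without KO replicates 1 and 2. Col18a1, the precursor of endostatin, was at 16.9, 17.3, 24.9, 15.9 and 14.3 CPM in Axl KO and at 25.3, 19.8, 19.8, 16.9 and 28.8 CPM in WT. Col18a1 had a log2 fold change of -0.30 ± 0.17 (SE), with unadjusted p = 0.0985 and adjusted p = 0.641 by edgeR. KO replicate 3 stood above the other 4 KO mice.

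Transmembrane collagens, which are anchored in the cell membrane with the triple helix outside, took 0.713 of the WT sum, the lowest ratio of the 9 class sums. Col23a1 was at 3.87, 5.72, 4.21, 5.11 and 2.45 CPM in Axl KO and at 6.29, 7.53, 7.88, 4.82 and 5.55 CPM in WT, with replicates 1, 3 and 5 of the KO mice below the lowest WT mouse. Col23a1 had a log2 fold change of -0.58 ± 0.21 (SE), with unadjusted p = 0.0165 and adjusted p = 0.572 by edgeR and an exact permutation p of 0.0397. This was the smallest unadjusted p of the 28 genes. Col13a1, the other tested member, which takes part in the neuromuscular junction, was at 1.7, 1.96, 3.04, 1.6 and 1.89 CPM in Axl KO and at 2.6, 2.33, 2.2, 1.55 and 3.03 CPM in WT. Col13a1 had a log2 fold change of -0.19 ± 0.24 (SE), with unadjusted p = 0.442 and adjusted p = 0.839 by edgeR.

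Single members stood for the remaining classes. Col8a1, a network-forming chain of vessel walls, was at 11, 10.8, 20.4, 10.1 and 9.24 CPM in Axl KO and at 13.8, 13.3, 11.8, 11 and 15.6 CPM in WT, so 4 KO mice were below the WT range and replicate 3 far above it. Col8a1 had a log2 fold change of -0.07 ± 0.20 (SE), with unadjusted p = 0.726 and adjusted p = 0.94 by edgeR. Col7a1, the anchoring fibril chain, was at 2.63, 1.35, 1.28, 1.46 and 0.943 CPM in Axl KO and at 1.37, 0.743, 1.85, 3.27 and 1.14 CPM in WT. Col7a1 had a log2 fold change of -0.06 ± 0.39 (SE), with unadjusted p = 0.884 and adjusted p = 0.981 by edgeR. Its 113 reads over 10 mice gave no stable direction, and the sign turned in 4 of the 10 fits that left out a mouse. Col28a1, a chain found around Schwann cells of peripheral nerves, was at 1.85, 1.81, 4.21, 2.33 and 2.45 CPM in Axl KO and at 1.92, 3.08, 2.67, 3.45 and 6.43 CPM in WT. Col28a1 had a log2 fold change of -0.44 ± 0.34 (SE), with unadjusted p = 0.215 and adjusted p = 0.735 by edgeR.

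In the pairs examined, chains of types I, III, V and VI followed each other closely from mouse to mouse. For 12 pairs, the relation of log2(CPM + 0.5) was taken over the 10 mice of both genotypes, and p-values were adjusted over the 12 pairs. The 2 genes of a pair share the depth, composition and dissection of each library. Control in common and a varying share of the cells that make both cannot be told apart here. Col1a1 and Col1a2 were closest: Pearson's r was 0.983 (permutation p = 2e-05, adjusted 0.00012) and Spearman's rho 0.964 (permutation p = 6e-05, adjusted 0.00072). The SD of their log2 ratio was 0.0776, against 0.394 and 0.361 for the chains themselves, and the per-length ratio of Col1a1 to Col1a2 stayed between 0.423 and 0.504. Without the 2 mice farthest from the median of Col1a1, WT replicate 1 and KO replicate 5, r was 0.976, and with the genotype means removed it was 0.973. The per-length ratio averaged 0.457 ± 0.0214 in Axl KO and 0.466 ± 0.0304 in WT (SD, n = 5 each).

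Col1a1 was also followed by Col3a1, Col5a1 and Col6a1. For Col1a1 and Col3a1 Pearson's r was 0.93 (permutation p = 3e-05, adjusted 0.00012) and Spearman's rho 0.939 (permutation p = 0.00019, adjusted 0.00076). For Col1a1 and Col5a1 Pearson's r was 0.943 (permutation p = 3e-05, adjusted 0.00012) and Spearman's rho 0.952 (permutation p = 0.00016, adjusted 0.00076). These 2 relations held without the 2 farthest mice (r = 0.941 and 0.928) and with genotype means removed (r = 0.908 and 0.911). The windows before the Col3a1 and Col5a1 starts, printed above, differ widely in base composition. Col1a1 had no RefSeq window to set beside them, and a link between these windows and the relations was not tested. For the neighbours Col3a1 and Col5a2 Pearson's r was 0.907 (permutation p = 0.00012, adjusted 0.000288) and Spearman's rho 0.915 (permutation p = 0.00052, adjusted 0.00156), with r = 0.877 without KO replicates 4 and 5. For Col1a1 and Col6a1 Pearson's r was 0.903 (permutation p = 0.00026, adjusted 0.00052) and Spearman's rho 0.867 (permutation p = 0.00223, adjusted 0.00446), with r = 0.91 without the 2 farthest mice and 0.865 with genotype means removed.

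Within type VI, Col6a2 moved together with Col6a1 and with Col6a3, with part of the relation resting on 2 mice. Col6a1 and Col6a3 were not set against each other. For Col6a2 and Col6a3 Pearson's r was 0.933 (permutation p = 8e-05, adjusted 0.00024) and Spearman's rho 0.903 (permutation p = 0.00075, adjusted 0.0018), and r was 0.826 without KO replicates 4 and 5. For Col6a1 and Col6a2 Pearson's r was 0.851 (permutation p = 0.002, adjusted 0.00343) and Spearman's rho 0.806 (permutation p = 0.00743, adjusted 0.0127), and r dropped to 0.59 without the same mice. The per-length ratio of Col6a1 to Col6a2 was 1.56 ± 0.226 in Axl KO and 1.58 ± 0.267 in WT.

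The divergent pair Col4a1 and Col4a2, whose shared first-exon bases are printed above, varied little and together. Their Pearson's r was 0.82 (permutation p = 0.0037, adjusted 0.00555) and Spearman's rho 0.648 (permutation p = 0.0484, adjusted 0.0727), with r = 0.833 without KO replicates 1 and 3, and the rank relation did not pass correction. The per-length ratio of the 2 genes was between 1.51 and 1.81 in every mouse and averaged 1.71 ± 0.116 in Axl KO and 1.63 ± 0.0944 in WT. Between type I and type IV no relation was detected: for Col1a1 and Col4a1 Pearson's r was 0.216 (permutation p = 0.545, adjusted 0.545) and Spearman's rho 0.127 (permutation p = 0.732, adjusted 0.732), and r was 0.491 without the 2 farthest mice and 0.46 with the genotype means removed. The second divergent pair, Col4a3 and Col4a4, showed none at its low counts either: Pearson's r was 0.428 (permutation p = 0.215, adjusted 0.235) and Spearman's rho 0.406 (permutation p = 0.246, adjusted 0.269), and r was -0.13 without WT replicate 3 and KO replicate 5. For the multiplexins Col15a1 and Col18a1 Pearson's r was 0.532 (permutation p = 0.108, adjusted 0.13) and Spearman's rho 0.455 (permutation p = 0.191, adjusted 0.23), and r was 0.164 without KO replicates 2 and 5.

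**Figure D5:**
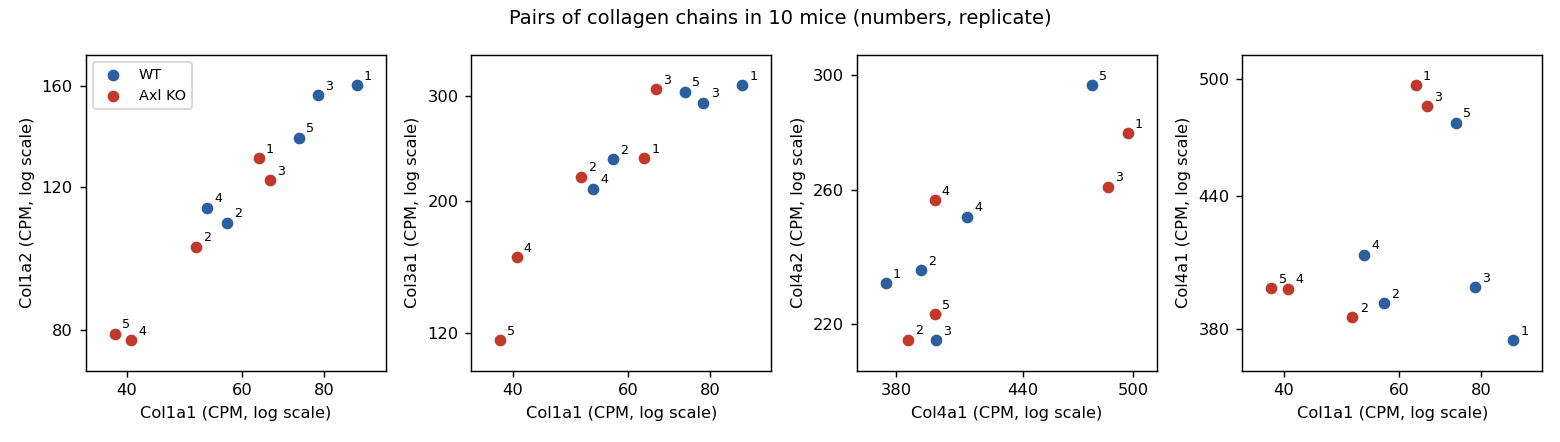
CPM of 4 pairs of collagen chains in the same 10 mice on log axes, WT in blue and Axl KO in red, numbered by replicate. Col1a2 and Col3a1 rise with Col1a1 across both genotypes (r = 0.983 and 0.93), Col4a2 rises with Col4a1 (r = 0.82), and Col4a1 shows no such order against Col1a1 (r = 0.216).

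Genes that build, export, trim, bind and degrade collagen gave few differences. Of 49 such genes, 41 were tested, 13 with a higher and 28 with a lower fitted level in Axl KO, and the median log2 fold change was -0.04. Lower levels made up 68.3% of the 41, beside 50.3% of all tested genes, a share that also applies to the counts by role below. edgeR and DESeq2 gave an adjusted p below 0.05 to 0 of them. At an unadjusted p below 0.05, 3 were lower (7.32%, where 3.86% of all genes were) and 0 higher. They were Colgalt1, Bmp1 and Tll1.

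Colgalt1, which adds galactose to hydroxylysine of new collagen chains, was at 32.3, 35.5, 37.6, 30.2 and 31.1 CPM in Axl KO and at 39.4, 38.6, 40.4, 41.9 and 39.1 CPM in WT. Colgalt1 had a log2 fold change of -0.25 ± 0.07 (SE), with unadjusted p = 0.00279 and adjusted p = 0.572 by edgeR. It was the 1 gene of this list whose groups did not overlap, as 0.633% of all tested genes did in that direction (exact permutation p = 0.00794, the smallest possible). Bmp1, the protease that removes the C-terminal propeptide of fibrillar procollagens, was at 10.7, 13.2, 12, 9.77 and 11.3 CPM in Axl KO and at 15.6, 13.2, 15.2, 12.9 and 14.2 CPM in WT. All KO mice but replicate 2 were below the lowest WT mouse. Bmp1 had a log2 fold change of -0.32 ± 0.10 (SE), with unadjusted p = 0.00855 and adjusted p = 0.572 by edgeR. Its relative Tll1 was at 0.618, 0.602, 1.64, 1.17 and 0.377 CPM in Axl KO and at 2.87, 1.27, 1.16, 1.21 and 2.27 CPM in WT on 100 reads in all. KO replicates 1, 2 and 5 were below the WT range. Tll1 had a log2 fold change of -0.90 ± 0.40 (SE), with unadjusted p = 0.0418 and adjusted p = 0.58 by edgeR. The propeptide removal group had 5 of 6 tested genes with lower KO means, among them Pcolce, the enhancer of Bmp1, at 38.2, 42.9, 91.5, 49.6 and 67.7 CPM in Axl KO and 59.9, 64.2, 45.9, 52.9 and 118 CPM in WT. Pcolce had a log2 fold change of -0.23 ± 0.28 (SE), with unadjusted p = 0.415 and adjusted p = 0.827 by edgeR. The Pcolce value turned to 0.06 without WT replicate 5, the highest mouse.

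Beside Colgalt1, no hydroxylase, glycosylating enzyme or chaperone had an unadjusted p below 0.05. In the group of prolyl and lysyl hydroxylation and glycosylation, 8 of 14 tested genes were higher and 6 lower in the fit, and P4hb, the shared subunit of the prolyl 4-hydroxylases and itself a protein disulfide isomerase, was at 89.4, 81.5, 101, 72 and 77.1 CPM in Axl KO and 92.9, 96.3, 91.4, 94.9 and 90.7 CPM in WT. The WT mice differed little, and 4 KO mice were below all of them and replicate 3 above. P4hb had a log2 fold change of -0.15 ± 0.08 (SE), with unadjusted p = 0.0937 and adjusted p = 0.636 by edgeR. Serpinh1 (HSP47), the chaperone specific to procollagen, was at 449, 384, 434, 352 and 283 CPM in Axl KO and 465, 417, 307, 386 and 477 CPM in WT. Only KO replicate 5 was below the lowest WT mouse. Serpinh1 had a log2 fold change of -0.11 ± 0.14 (SE), with unadjusted p = 0.438 and adjusted p = 0.838 by edgeR. Its relation to Col1a1 did not pass: Pearson's r was 0.575 (permutation p = 0.0825, adjusted 0.11) and Spearman's rho 0.624 (permutation p = 0.0614, adjusted 0.0818), and r was 0.175 without the 2 farthest mice. In all, 7 of 8 chaperone and export genes had lower fitted levels, between -0.47 and 0.30.

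Receptors and degrading enzymes gave no called gene. Of 8 tested receptors, 6 had lower fitted levels, and Itgb1, the β chain of the collagen-binding integrins, was at 240.3, 272, 271, 239 and 250 CPM in Axl KO and 258, 264, 264, 271 and 268 CPM in WT. KO replicates 1, 4 and 5 were below the lowest WT mouse. Itgb1 had a log2 fold change of -0.06 ± 0.06 (SE), with unadjusted p = 0.315 and adjusted p = 0.789 by edgeR. Of 5 tested breakdown genes, 4 had lower fitted levels, and Pepd, the dipeptidase that recycles proline from degraded collagen, was at 86.6, 70.5, 69.8, 73.2 and 76.6 CPM in Axl KO and 76.9, 72.5, 54.5, 67.7 and 79.3 CPM in WT. Pepd had a log2 fold change of 0.10 ± 0.10 (SE), with unadjusted p = 0.318 and adjusted p = 0.79 by edgeR.

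Markers of fibroblasts, pericytes and endothelial cells mostly had lower fitted levels in Axl KO, and those of brown adipocytes mostly higher ones. Of all tested genes, 50.3% had a lower one. Of 11 fibroblast and progenitor markers, 10 had a lower fitted level in Axl KO (median log2 fold change -0.21). Their summed levels were 309 to 423 CPM in Axl KO and 395 to 498 CPM in WT, lowest in KO replicates 4 and 5. Of these 11 genes only Ly6a had an unadjusted p below 0.05 by edgeR, and it was higher. DESeq2 gave 2, Ly6a and Pi16 (unadjusted p = 0.0197 and 0.0496), with Pi16 lower. Pericyte and smooth muscle markers were lower in 7 of 9 cases, with sums of 731 to 863 CPM in Axl KO and 801 to 892 CPM in WT, and endothelial markers in 6 of 8, with sums of 518 to 658 CPM in Axl KO and 531 to 758 CPM in WT and Cldn5 and Egfl7 lower at an unadjusted p below 0.05. Macrophage markers were lower in 5 of 8 cases, with sums of 108 to 194 CPM in Axl KO and 124 to 185 CPM in WT, and erythroid markers in 2 of 5, with sums of 385 to 715 CPM in Axl KO and 475 to 668 CPM in WT. Brown adipocyte markers were higher in 12 of 13 cases. Their sums were 16460 to 21070 CPM in Axl KO and 15230 to 17530 CPM in WT. By edgeR 5 of these markers, Ucp1, Elovl3, Dio2, Cox8b and Cox7a1, were higher at an unadjusted p below 0.05. DESeq2 gave these 5 and Fabp4 (unadjusted p = 0.0416). Over all tested genes, 4.52% were higher and 3.86% lower at that threshold. Dio2 also passed DESeq2's adjusted threshold (adjusted p = 0.0302) and no marker passed edgeR's. The part of these cell types in the collagen values was not tested.

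Skeletal muscle markers were lower in 10 of 10 cases, and their sum varied widely between mice: it was 25.1, 6.17, 1758, 637 and 3401 CPM in Axl KO and 3289, 863, 4060, 3191 and 823 CPM in WT. What part muscle had in the collagen values was not tested. KO replicates 1 and 2, with almost no reads of these markers, had fibrillar sums of 615 and 556 CPM. The lowest WT mouse had 571 CPM. Without these 2 mice the median log2 fold change of the collagen genes was -0.33. In that fit 9 of the collagen genes had an unadjusted p below 0.05 and 6 were higher. With the mean log2 level of the 10 muscle markers as a covariate, and not their sum, the same values were -0.30, 6 and 4. In both cases 0 collagen genes had an adjusted p below 0.05. Both were chosen after seeing the data. Of 7 Schwann cell markers, 4 were tested and 3 of these were lower, with sums of 274 to 364 CPM in Axl KO and 277 to 379 CPM in WT. B and T cell markers summed to 0.584 to 1.4 CPM in Axl KO and 0.862 to 2.46 CPM in WT, and 0 of the 7 passed the filter. Cartilage and bone markers summed to 2.26 to 2.63 CPM in Axl KO and 1.74 to 4.04 CPM in WT with 1 of 7 tested, and skin epithelium markers to 0.904 to 2.63 CPM in Axl KO and 1.06 to 3.27 CPM in WT with 1 of 5 tested.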

How the data were processed

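Reads were processed by the authors, who deposited 1 table per mouse with raw counts per Ensembl gene, without normalization or pooling. The paper's methods name Trim Galore, hisat2, GRCm38 and rRNA depletion, whereas the submitters' processing notes name Trimmomatic (0.36), STAR (2.6.1c) and GRCm38.p5 and the labels name polyA RNA. The counting tool and its strand setting are not given in the sources used here. Groups and replicate numbers came from the labels, and the values of any 2 tables differed by more than sampling noise.

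Identifiers were matched to GENCODE M21 (41163 of 41249). Genes with a mean above 1 CPM over the 10 mice were kept, scaled by TMM and tested across all 13739 of them with edgeR (4.0.16, R 4.3.3) by the quasi-likelihood test with Benjamini-Hochberg adjustment at 0.05, with no covariate. The SE was derived from the F statistic, and the fit was tested on simulated data. Levels per length used the longest coding transcript. Single genes were compared by 2-sided exact permutation tests of log2(CPM + 0.5), and relations between chains by 100000 permutations. The alternatives were DESeq2 (1.42.0), other scalings and filters, a robust fit, a replicate block and leaving out each mouse. The collagen classes, the pathway and marker lists and the pairs were chosen with earlier results of these data known. Values in every mouse are given for Axl, the 2 most abundant tested genes of each class, genes with an unadjusted p below 0.05 (collagen or pathway), members of the pairs, and the most abundant gene of each pathway role. Where labels do not name separate cohorts, p-values measure the spread between these 10 mice. Total counts of 5431014 to 9580215 reads per mouse limit precision for genes near 1 CPM, and intervals from counts cover counting error only.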

Additional observations from a re-analysis of the deposited data

Results flagged for a closer look

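In a group of 5 mice, 1 mouse was marked when its gap to the nearest other mouse took more than 0.71 of the group's whole range. Among 90 groups examined (genes and class sums in each genotype) 9 were marked, where chance marks about 1 in 20, or 4.5. Of these marks, 5 fell on a single mouse, KO replicate 3. In that mouse Col8a1 was at 20.44 CPM (next KO mouse 10.98), the summed network-forming collagens at 21.14 CPM (next 11.69), Col28a1 at 4.205 CPM (next 2.451), Col13a1 at 3.037 CPM (next 1.958) and Col18a1 at 24.88 CPM (next 17.32), each the highest of the 5 KO mice. The network-forming sum is almost entirely Col8a1, so these are not separate observations.

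In WT mice, Col14a1 was at 34.88 CPM in replicate 1 (next 22.13), Pcolce at 118.3 CPM in replicate 5 (next 64.18) and Col20a1 at 0.7425 CPM in replicate 2 (next 2.189). Axl was at 0.4376 CPM in KO replicate 4 (next 1.697). The log2 fold change of Col14a1 without WT replicate 1 was -0.41, and that of Pcolce without WT replicate 5 was 0.06.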

How the results depend on the processing

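The number of all genes with an adjusted p below 0.05 was 1 in each edgeR fit and 9 by DESeq2, and the number of collagen genes was 0 in each of them. Collagen genes with an unadjusted p below 0.05 numbered 4 with the robust fit and 2 to 10 when 1 mouse was left out, and stayed at 6 with DESeq2, its size factors, edgeR's own filter, no filter and protein-coding genes alone. Genes with a higher fitted level in Axl KO numbered 10 of 41 without a filter on low counts and 2 to 7 when 1 mouse was left out. The median log2 fold change stayed between -0.37 and -0.19 in those fits and between -0.33 and -0.28 in the others. Among genes given in every mouse, direction turned for Col8a1 and Pcolce without the 2 mice low in muscle markers (0.0453 and 0.0317). Over all tested collagen genes, 6 were higher without those 2 mice and 4 with all mice. With muscle as a covariate, direction turned for Col8a1 and Col4a2 (0.0233 and -0.0234). Direction also turned when 1 mouse was left out for Col12a1 (-0.24 to 0.19), Col4a2 (-0.0404 to 0.0817), Col7a1 (-0.32 to 0.28), Col8a1 (-0.351 to 0.0104), Col20a1 (-0.243 to 0.111), Col27a1 (-0.113 to 0.124), Col6a6 (-0.57 to 0.0246) and Pcolce (-0.466 to 0.0605). Pearson's r of Col1a1 and Col4a1 was 0.338 without TMM. The cause was not tested. Deviations of mice with the same replicate number had correlations of -0.36 to 0.37 over the 5 pairs. KO and WT mice of unlike number had -0.38 to 0.33. These values cannot show whether the numbers pair animals, such as littermates. With the replicate block, 1 gene was called over all genes, 0 of them a collagen, 9 collagen genes had an unadjusted p below 0.05, 4 were higher, and the median was -0.30. Genes near 1 CPM, such as Col7a1 and Col4a3, rested on 113 and 134 reads over all mice.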
